A study of Homo sapiens with 40 samples.

Results

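The 41 genes described here are the WNT ligands, their receptors and the best-known genes that respond to WNT signalling, in 10 lines of H1299, a human lung carcinoma cell line. They were taken by symbol from a fixed list out of the 59251 gene symbols counted, and comprise 14 WNT ligands, 10 Frizzled receptors, the ROR2-arm receptors ROR1, ROR2 and RYK, the co-receptors LRP5 and LRP6, the R-spondin receptors LGR4 and LGR5, the 4 TCF/LEF transcription factors, the feedback inhibitors AXIN2, RNF43 and ZNRF3, and the secreted inhibitors DKK1, DKK3 and SFRP1. Of the 41, 34 passed the filter on low counts and were tested. The edited lines were single clones that had gone through CRISPR-Cas9: clones 35 and 72 with JAG1 knocked out, clones 98 and 99 with MYO10 knocked out, clone 84, and clones 38 and 75, which carry wild-type MYO10 and JAG1. Clone 84 is a MYO10 knockdown by its genotype label and a knockout by its title, and is treated as a knockdown of its own. The series title places the knockouts in leader cells. The other 3 lines were untreated and wild-type for both genes: leaders (3L2), followers (3F2) and parentals, where leader and follower are the names for cells that head an invading group and cells that trail in it. Each line had 4 cultures, and RNA was sequenced to between 40038800 and 44013400 counts a library (to 6 digits).

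WNT proteins are secreted lipid-modified ligands. In the canonical arm a ligand joins a Frizzled receptor to LRP5 or LRP6, which stops the destruction complex from degrading beta-catenin, and beta-catenin then activates genes together with TCF/LEF factors. AXIN2, RNF43, ZNRF3, LEF1, TCF7 and DKK1 are widely used readouts of that response and most of them feed back on it. In the ROR2 arm, ligands such as WNT5A and WNT5B act through ROR1, ROR2 or RYK with Frizzled receptors on the cytoskeleton and cell movement, without a need for beta-catenin. The canonical arm is taken here as 24 genes, the ROR2 arm as 7, and the 10 Frizzled receptors, which serve both, are given apart.

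Levels are CPM, a gene's counts per 1000000 of the scaled library total. A gene was called higher or lower at an edgeR quasi-likelihood p, adjusted over all 19703 genes tested, under 0.05 and a log2 fold change of 1 or more either way. Where a comparison spans several clones, the p had to pass in the same direction for every pair of lines, while the fold threshold was applied to the average over lines. The labels call the 4 cultures of a line biological replicates but each line is a single line or clone, so the p-values measure the spread between cultures and not between lines of a kind. Where cultures are said not to overlap, this describes the same cultures that gave the call and is no further test. The share of all genes without overlap was not counted. In bulk RNA, fewer cells with a transcript and less transcript per cell cannot be told apart. The carcinoma markers EPCAM, KRT8, KRT18, KRT19 and VIM summed to 1071 to 4228 CPM per library. Of these 5 markers 3 passed the filter on low counts, so the sum does not show that all 5 were expressed. The sums of 5 leukocyte markers, 4 endothelial markers, 5 fibroblast markers and 5 alveolar and airway markers reached at most 1.74, 1.2, 9.76 and 0.298 CPM. MYO10 averaged 63.4 ± 5.82 and 52.0 ± 5.08 CPM in knockout clones 98 and 99 and 149.8 ± 27.3 CPM in clone 84, against 491 ± 79.9 and 441 ± 66.9 CPM in wild-type clones 38 and 75. JAG1 averaged 32.4 ± 1.76 CPM in knockout clone 35 and 6.49 ± 0.296 CPM in clone 72, against 44.2 ± 9.63 and 40.5 ± 1.38 CPM in the wild-type clones, so the JAG1 transcript was called lower in clone 72 and not in clone 35 (log2 fold change -2.70 ± 0.18, adjusted p = 1.1e-12 and -0.39 ± 0.15, adjusted p = 0.14). An edit can disable a protein and leave its transcript in place, and the counts alone do not check the edit in clone 35. In the other lines MYO10 averaged 248 and 518 CPM in JAG1 knockout clones 35 and 72, 645 CPM in leaders, 0.112 CPM in followers and 312 CPM in parentals. JAG1 averaged 80.5, 102 and 151 CPM in clones 98, 99 and 84, 139 CPM in leaders, 17.5 CPM in followers and 295 CPM in parentals. Here and below, ± after a mean is the SD over 4 cultures and ± after a log2 fold change is its standard error.

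Promoter sequence is shown for 4 members, RNF43, ROR2, WNT9A and FZD8. They were high in some lines and near 0 in others, and their stretch upstream of the start could be read free of exons. The sequences are RefSeq's for build GRCh38.p14, up to 250 bases before the annotated start, 5′ to 3′ on the gene's strand. Capitals mark CTTTG or its other strand CAAAG, the core of the site that TCF/LEF factors bind.
RNF43, chr17:58417596-58417784, minus strand: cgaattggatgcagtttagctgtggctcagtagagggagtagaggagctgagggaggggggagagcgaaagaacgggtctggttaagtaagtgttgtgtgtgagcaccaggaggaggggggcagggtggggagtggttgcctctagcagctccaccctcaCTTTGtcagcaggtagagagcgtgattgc
ROR2, chr9:91950229-91950478, minus strand: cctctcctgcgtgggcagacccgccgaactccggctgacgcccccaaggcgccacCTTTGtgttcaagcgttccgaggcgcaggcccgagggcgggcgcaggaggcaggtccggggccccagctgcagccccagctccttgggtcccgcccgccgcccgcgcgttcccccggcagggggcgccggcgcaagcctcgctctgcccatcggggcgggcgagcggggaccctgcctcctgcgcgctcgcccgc
WNT9A, chr1:227947933-227948182, minus strand: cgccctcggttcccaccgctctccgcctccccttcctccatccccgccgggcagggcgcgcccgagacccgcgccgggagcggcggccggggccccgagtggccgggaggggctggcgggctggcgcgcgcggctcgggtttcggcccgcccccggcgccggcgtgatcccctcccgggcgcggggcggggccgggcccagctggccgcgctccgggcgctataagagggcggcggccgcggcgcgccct
FZD8, chr10:35642297-35642546, minus strand: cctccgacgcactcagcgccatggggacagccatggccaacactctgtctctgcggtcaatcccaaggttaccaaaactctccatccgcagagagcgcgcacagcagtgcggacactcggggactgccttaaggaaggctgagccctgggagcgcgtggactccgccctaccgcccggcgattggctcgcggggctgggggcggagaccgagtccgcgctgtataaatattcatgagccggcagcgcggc
The RNF43 stretch holds 189 bases, since the rest of its window lies in annotated exons. The WNT9A, ROR2 and FZD8 windows hold 44, 32 and 24 CpG dinucleotides and the RNF43 stretch 4, where the median over all 35114 windows of the table is 11. The core occurs once in the printed stretches of RNF43 and ROR2 and not in those of WNT9A or FZD8. RNF43 has another annotated start in the table, whose 250 bases lie outside annotated exons, hold 0 CpG dinucleotides and 1 core, and are not printed. Of the 41 members, 27 had a window in the table, 34 windows in all, and 10 of these held CTTTG or CAAAG, against 42.1% of all windows. The longer forms CTTTGAT and CTTTGTT, searched on both strands, occur in 2.26% and 4.5% of all windows and in 3 member windows together. A match describes the letters only.

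Across the 10 lines the members ranged from steady to widely moving, without a clear break between them. Of the 45 pairs of lines, LEF1 was called in 38, RNF43 in 35, WNT9A, FZD8 and ROR2 in 34 each, SFRP1 in 33 and WNT7B in 31, while FZD1, FZD5, RYK, LRP6 and TCF7L2 were called in 0. LRP6 rests on few counts there, at 0.194 to 0.376 CPM over the lines. The median was 16 pairs over the 34 members tested and 3 over all 19703 genes. In 11 of the 34 members 1 line stood apart from each of the other 9, against 12.7% of all genes. Followers did so most often, with FZD2 higher and WNT9A, FZD3, FZD7, FZD8, DKK1 and LGR4 lower than in every other line, as 3.74% and 2.88% of all genes were. Leaders stood apart by higher WNT7B, JAG1 knockout clone 72 by lower WNT16 and SFRP1, and MYO10 knockout clone 98 by lower WNT5B, where the shares of all genes were 0.675%, 2.15% and 0.508%. Parentals and the other clones did so in no member.

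**Figure D1:**
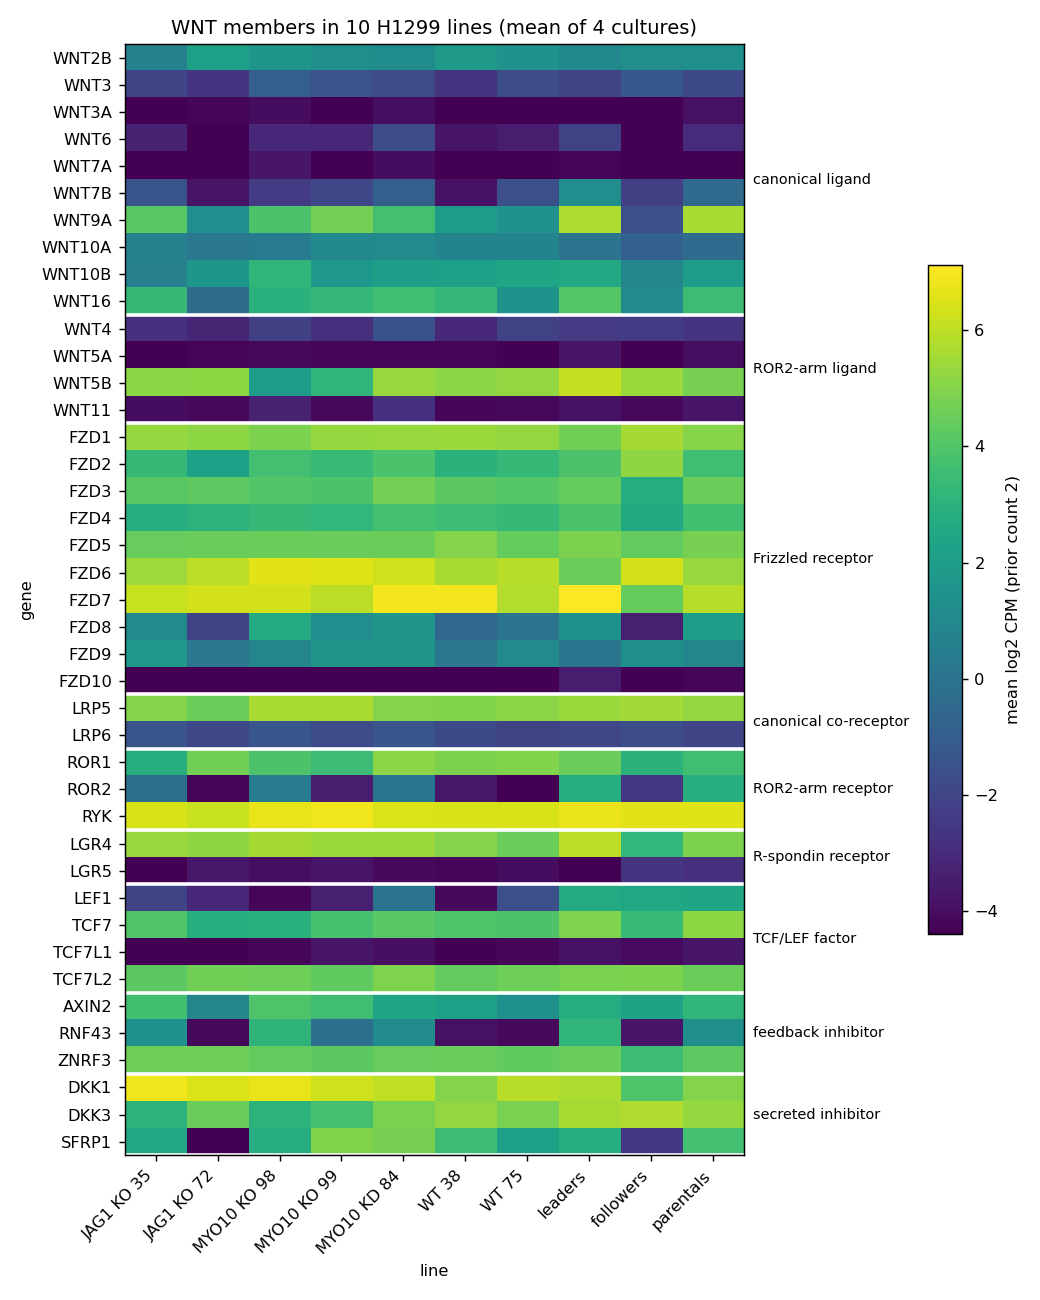
Mean log2 CPM (prior count 2) of the 41 members (rows, grouped by role) in the 10 lines (columns, 4 cultures each). RYK stays between 71.8 and 117 CPM in all lines, while the rows of ROR2, RNF43, LEF1 and SFRP1 change between lines by several units of log2.

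The 10 canonical ligands together came to 81.9 ± 15.4 CPM in leaders and 7.82 ± 0.373 CPM in followers, against 68.5 ± 9.9 CPM in parentals. Per kilobase of exon, the scale on which genes can be compared with each other, WNT9A led the canonical ligands in leaders at 13.4 CPM per kb, in parentals at 12.3, and in JAG1 knockout clone 35 and MYO10 knockout clones 98 and 99 at 4.92, 3.65 and 6.88 CPM per kb. WNT16 led in clone 84 and wild-type clone 38, and WNT10B in followers, JAG1 knockout clone 72 and wild-type clone 75, there at 0.698, 1.19 and 2.03 CPM per kb. Among the 4 ligands of the ROR2 arm, WNT5B led in every line, at 0.89 CPM per kb in MYO10 knockout clone 98 up to 16.0 CPM per kb in leaders. WNT5A, the other well-known ligand of that arm, had between 0 and 5 counts over the 4 libraries of a line. RYK led the receptors of that arm in every line, at 13.6 CPM per kb in leaders, where ROR1 had 3.31 and ROR2 1.13 CPM per kb. FZD7 led the Frizzled receptors in leaders at 36.2 CPM per kb, while FZD6 led in MYO10 knockout clones 98 and 99 at 24.3 and 23.4, in followers at 20.5 and, next to FZD7, in wild-type clone 75 at 14.6 CPM per kb.

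Leaders carried more message than followers for most of the canonical ligands, for ROR1 and ROR2, and for the brakes RNF43, DKK1 and SFRP1, while the Frizzled receptors moved both ways. Of the 34 members tested, 16 were higher and 3 lower in leaders, beside 25.4% of all genes called, 12.7% higher and 12.7% lower. The calls comprised 10 higher and 0 lower of 20 canonical members, 2 higher and 0 lower of 5 in the ROR2 arm, and 4 higher and 3 lower of 9 Frizzled receptors. The median log2 fold change was 0.94 over the members tested and 0.00625 over all genes. Endothelial markers were lower in leaders in 2 of 3 tested, at 0.125 to 0.288 CPM summed per library in leaders and 1.04 to 1.2 CPM in followers, and leukocyte markers in 1 of 2 tested, at 0.195 to 0.584 and 0.214 to 0.485 CPM, both lists near 0.

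Among canonical ligands, 5 of 8 tested were higher in leaders. WNT9A had 67.4, 48.6, 60.002 and 37.7 CPM in leaders, against 0.19, 0.201, 0.263 and 0.663 CPM in followers (log2 fold change 7.34 ± 0.36, adjusted p = 5.5e-18). WNT16 had 20.6, 18.4, 16.3 and 12.8 CPM in leaders, against 2.47, 2.01, 1.99 and 1.94 CPM in followers (log2 fold change 3.02 ± 0.27, adjusted p = 1.2e-11). In both genes each leader culture lay above each follower culture. WNT7B stood at 2.59, 2.44, 2.28 and 2.15 CPM in leaders, against 0.119, 0.101, 0.311 and 0.204 CPM in followers (log2 fold change 3.66 ± 0.39, adjusted p = 4.5e-11). WNT10B had 5.35, 5.56, 6.24 and 5.94 CPM in leaders, against 1.59, 2.06, 1.99 and 1.71 CPM in followers (log2 fold change 1.65 ± 0.13, adjusted p = 1.7e-14), again without overlap. The fifth was WNT6, which stayed under 1 CPM in all lines and had 32 counts in leaders and none in followers, at least 10.7-fold higher when followers are set to a floor of 3 counts in all. WNT2B, WNT3 and WNT10A were not called.

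In the ROR2 arm the 2 ROR receptors were higher in leaders and the ligands were not called. ROR2, the receptor that gives the arm its name, had 7.89, 6.67, 5.5 and 6.31 CPM in leaders, against 0.0712, 0.276, 0.0718 and 0.128 CPM in followers, whose libraries held 22 counts in all. The ratio of summed counts was 48.8-fold (95% interval 32.1 to 78.2), where this and later count intervals cover counting error only (log2 fold change 5.58 ± 0.38, adjusted p = 2.5e-15). ROR1, its close relative, had 23.7, 21.0, 22.3 and 21.9 CPM in leaders, against 7.997, 7.91, 9.07 and 6.96 CPM in followers (log2 fold change 1.48 ± 0.15, adjusted p = 1.1e-10). The cultures did not overlap in either gene. WNT5B averaged 69.0 ± 8.28 CPM in leaders and 42.2 ± 4.76 CPM in followers and missed the fold threshold (log2 fold change 0.71 ± 0.14). RYK averaged 109 ± 3.41 and 96.7 ± 2.96 CPM in leaders and followers (log2 fold change 0.18 ± 0.0457, adjusted p = 0.00071).

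The Frizzled receptors divided. FZD7 had 139, 145, 136 and 139 CPM in leaders, against 17.8, 23.8, 24.2 and 18.4 CPM in followers (log2 fold change 2.73 ± 0.0953, adjusted p = 1.9e-24). FZD8 had 2.96, 2.79, 2.09 and 2.62 CPM in leaders, against 0.0475, 0, 0.0957 and 0.0765 CPM in followers, which is 9 counts over 4 libraries and a ratio of 47.3-fold (95% interval 24.7 to 104). FZD3 had 21.3, 21.5, 20.3 and 22.1 CPM in leaders, against 6.95, 7.16, 6.51 and 5.69 CPM in followers (log2 fold change 1.69 ± 0.084, adjusted p = 1.1e-21). FZD3, FZD7 and FZD8 were each higher in every leader culture than in any follower culture. FZD4 had 14.0, 15.8, 12.4 and 15.2 CPM in leaders, against 6.26, 6.56, 6.56 and 4.72 CPM in followers (log2 fold change 1.25 ± 0.10, adjusted p = 1.1e-14), and 18.9% of its exon length is shared with PRSS23 on the other strand. Its cultures did not overlap. FZD6, which is known for planar polarity, went the other way, with 22.9, 24.3, 21.0 and 24.0 CPM in leaders, against 87.1, 84.4, 85.3 and 77.2 CPM in followers (log2 fold change -1.86 ± 0.0738, adjusted p = 4.6e-25). So did FZD2, with 14.0, 17.1, 14.1 and 15.1 CPM in leaders, against 30.5, 39.5, 38.1 and 40.2 CPM in followers (log2 fold change -1.30 ± 0.18, adjusted p = 1.4e-07). FZD9, at 1.22, 1.19, 0.648 and 1.1 CPM in leaders, against 2.52, 2.51, 2.51 and 2.47 CPM in followers, was the third lower receptor (log2 fold change -1.27 ± 0.19, adjusted p = 1.9e-07). In FZD2, FZD6 and FZD9 each leader culture lay below each follower culture.

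Among the receptors and responders of the canonical arm, RNF43 moved most. RNF43 encodes a ubiquitin ligase that removes Frizzled receptors from the cell surface and is itself induced by beta-catenin. It had 9.04, 11.4, 8.14 and 7.64 CPM in leaders, against 0.0475, 0.0251, 0.0478 and 0 CPM in followers, with 1466 and 5 counts in all and a ratio of 295-fold (95% interval 126 to 909). Much of the exon length of RNF43, 73.9%, overlaps other annotated genes, 59.5% on its own strand with AC004687.2, which is not among the symbols counted. Reads there cannot be assigned to RNF43 alone with certainty. LGR4, a receptor for R-spondins that holds RNF43 and ZNRF3 in check, had 68.4, 60.3, 50.9 and 66.1 CPM in leaders, against 10.4, 9.05, 9.23 and 8.49 CPM in followers (log2 fold change 2.72 ± 0.10, adjusted p = 1.7e-24). TCF7, a TCF/LEF factor, had 31.4, 30.4, 30.5 and 28.0 CPM in leaders, against 10.6, 10.4, 11 and 10.00 CPM in followers (log2 fold change 1.52 ± 0.10, adjusted p = 1.7e-17). The cultures of these genes did not overlap between the lines. Of the other readouts of the arm, DKK1 was called higher in leaders, as given below, and LEF1, AXIN2 and ZNRF3 were not called. LEF1 averaged 6.3 ± 0.795 CPM in leaders and 5.6 ± 0.307 CPM in followers (adjusted p = 0.44), and AXIN2 averaged 6.59 ± 0.814 and 4.66 ± 0.449 CPM (log2 fold change 0.50 ± 0.16). ZNRF3, the partner of RNF43, averaged 22.6 ± 0.398 CPM in leaders and 11.4 ± 0.84 CPM in followers and missed the fold threshold narrowly (log2 fold change 0.986 ± 0.0727).

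Of the 3 secreted inhibitors among the members, DKK1 and SFRP1 were higher in leaders as well and DKK3 was not called. Extracellular modulators outside the members went both ways and are given below, with the inhibitor WIF1 among the lower ones. DKK1, which blocks LRP5 and LRP6, had 51.3, 44.4, 65.8 and 50.2 CPM in leaders, against 17.1, 14.1, 16.4 and 15 CPM in followers (log2 fold change 1.76 ± 0.23, adjusted p = 4.4e-08). SFRP1, a decoy that binds WNT proteins, had 8.06, 6.67, 6.12 and 7.04 CPM in leaders, against 0.166, 0.101, 0.191 and 0.0765 CPM in followers, whose 22 counts give a ratio of 51.6-fold (95% interval 33.9 to 82.7). Neither gene overlapped between the lines. DKK3, a divergent member of the DKK family, averaged 48.9 ± 6.36 and 53.3 ± 2.9 CPM in leaders and followers (adjusted p = 0.36).

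**Figure D2:**
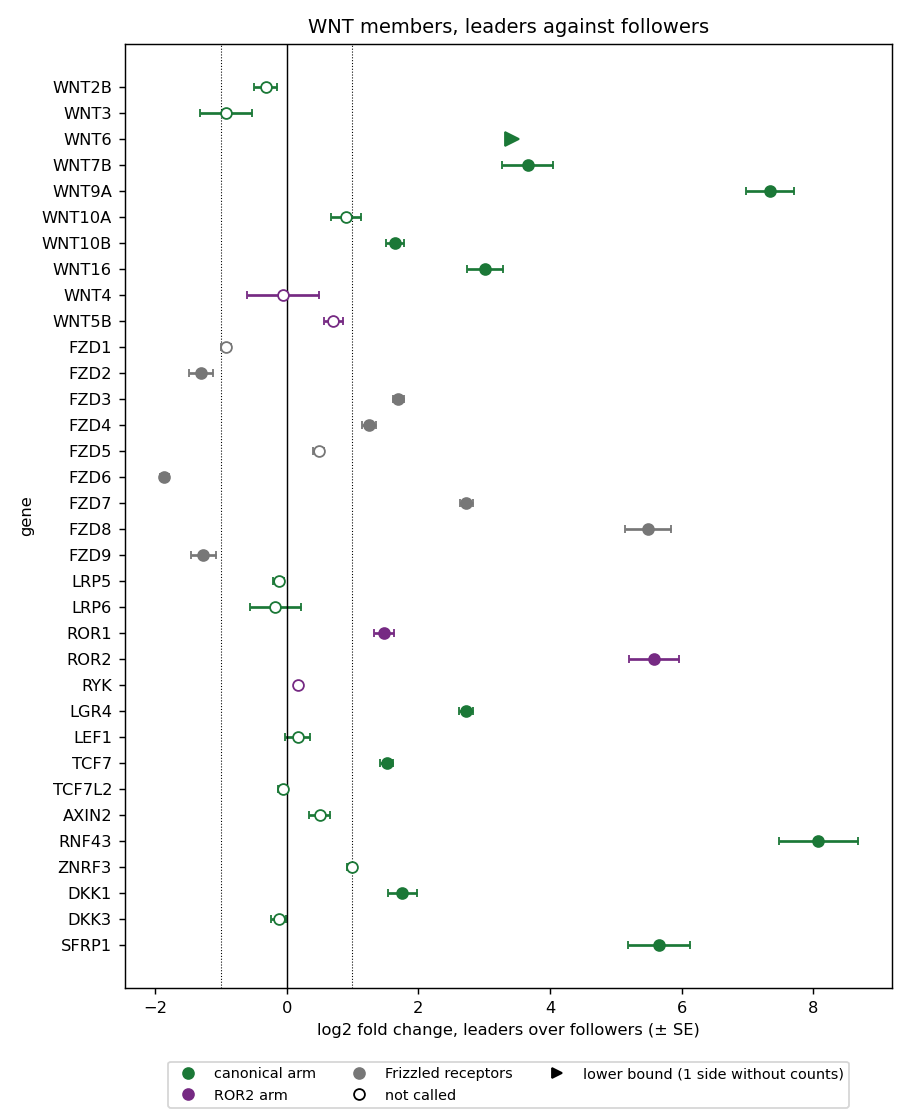
Fitted log2 fold change of leaders over followers with its standard error (x axis) for the 34 members tested (y axis, by role); filled points passed the test, open points did not, dotted lines mark a log2 fold change of 1 either way, and the triangle is a lower bound against followers without a count of WNT6. The 16 members to the right and the 3 Frizzled receptors to the left of the dotted lines are filled.

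Leaders and followers were each set against parentals, and the 2 comparisons share the parental cultures. In leaders 5 members were higher and 0 lower (9.76% of all genes called, 3.22% higher and 6.54% lower), and in followers 2 were higher and 15 lower (20.3% of all genes called, 9.32% higher and 10.9% lower). WNT5B had 74.8, 61.9, 61.9 and 77.5 CPM in leaders, against 24.7, 24.9, 34.2 and 26.9 CPM in parentals (log2 fold change 1.32 ± 0.14, adjusted p = 3.2e-09), with no overlap. The other 4 that were higher in leaders were WNT7B, FZD7, LGR4 and RNF43, and all 4 were lower in followers against parentals. RNF43 averaged 9.06 ± 1.69 CPM in leaders and 0.0301 ± 0.0227 CPM in followers, against 2.6 ± 0.737 CPM in parentals. The log2 fold change of RNF43 over parentals was 1.80 ± 0.32 in leaders and -6.28 ± 0.68 in followers. In WNT9A, FZD8, ROR2 and SFRP1 followers were lower than parentals and leaders were not called. WNT9A averaged 53.4 ± 13 CPM in leaders and 0.329 ± 0.225 CPM in followers, against 49.0 ± 7.06 CPM in parentals. SFRP1 averaged 6.97 ± 0.817 CPM in leaders and 0.134 ± 0.054 CPM in followers, against 12.7 ± 2.16 CPM in parentals, and ROR2 6.59 ± 0.994 and 0.137 ± 0.0968, against 7.35 ± 0.896 CPM. FZD2 and FZD6 were higher in followers than in parentals (log2 fold change 1.63 ± 0.18 and 1.04 ± 0.0712). FZD6 lies at the fold threshold, and the call was lost without replicate 1 or 3 of followers or replicate 1 or 3 of parentals (log2 fold change 0.91 to 1.00), with no low-count filter, where it rounds to 1.00, and with library totals alone at 0.95. The 15 members lower in followers were WNT6, WNT7B, WNT9A, WNT10B, WNT16, FZD3, FZD4, FZD7, FZD8, ROR2, TCF7, DKK1, LGR4, RNF43 and SFRP1. DKK1 and FZD4 lost that call without replicate 4 of parentals (log2 fold change -0.77) and without replicate 4 of followers (log2 fold change -0.99). Marker genes of other cell types moved with these comparisons at low levels. All 3 endothelial markers tested were higher in followers than in parentals and 1 in leaders, with the list summing to 0.125 to 0.288 CPM in leaders and 1.04 to 1.2 CPM in followers, against 0.0469 to 0.118 CPM in parentals. Of 2 fibroblast markers tested 1 was lower in both, at 1.37 to 3.65 CPM summed in leaders and 2.01 to 3.11 CPM in followers, against 6.23 to 9.76 CPM in parentals. Of 2 leukocyte markers 1 was higher and 1 lower in followers. Of 3 carcinoma markers 2 were higher in leaders and 1 in followers, at 2414 to 2749 and 2944 to 3171 CPM summed, against 2019 to 2269 CPM in parentals. Their part in these differences was not tested.

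The wild-type clones, edited lines in which both targets stayed wild-type, were set against the unedited leaders. Of the 34 members, 1 was higher and 9 lower (9.98% of all genes called, 5.13% higher and 4.85% lower). LEF1, the TCF/LEF factor most often induced by the pathway itself, was among the lower ones. It had 0, 0, 0.0247 and 0.0242 CPM in wild-type clone 38 and 0.312, 0.144, 0.365 and 0.371 CPM in clone 75, against 7.45, 5.86, 5.69 and 6.21 CPM in leaders. That is 2 and 52 counts in the clones and 1022 in leaders, and leaders were higher by 519-fold (95% interval 143 to 4293) and 21.0-fold (95% interval 15.9 to 28.3). No culture of the clones came near a leader culture. In all 7 clones LEF1 lay under the unedited lines: the highest was clone 84 at 1.07 ± 0.481 CPM, against 5.6 ± 0.307 CPM in followers and 5.36 ± 0.451 CPM in parentals. RNF43 had 4 and 2 counts in clones 38 and 75 and ROR2 6 and 0. Leaders had 372-fold (95% interval 145 to 1368) more RNF43 than clone 38, and at least 381-fold more ROR2 than clone 75. WNT9A averaged 3.95 ± 0.800 and 2.66 ± 0.327 CPM in clones 38 and 75, against 53.4 ± 13 CPM in leaders (log2 fold change -4.04 ± 0.20, adjusted p = 1.8e-13). WNT6, WNT7B, WNT16, FZD8 and LGR4 were lower too, with log2 fold changes from -4.74 to -1.16, and FZD6 was higher (1.23 ± 0.0662). WNT6 and WNT16 lost their calls without replicate 1 of leaders or replicate 3 of wild-type clone 75 (log2 fold change -1.99 to -1.79) and without replicate 4 of wild-type clone 38 (log2 fold change -1.53). AXIN2 averaged 4.4 ± 0.514 and 2.59 ± 0.31 CPM in the clones and 6.59 ± 0.814 CPM in leaders and was not called (log2 fold change -0.97 ± 0.13). Of 3 carcinoma markers tested 2 were lower in the clones, at 1894 to 2029.6 and 1722 to 1908 CPM summed per library in clones 38 and 75, against 2414 to 2749 CPM in leaders. Of 2 fibroblast markers 1 was lower, at 0.405 to 0.42 and 0.57 to 0.835 CPM summed, against 1.37 to 3.65 CPM in leaders. Their part in these differences was not tested.

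The wild-type clones differed from each other in 5 members, 3 higher and 2 lower in clone 38 (4.37% of all genes called, 1.63% higher and 2.74% lower). FZD7 averaged 123 ± 7.82 CPM in clone 38 and 55.3 ± 2.93 CPM in clone 75, WNT16 10.0 ± 3.23 and 2.98 ± 0.99 CPM, and SFRP1 11.9 ± 2.21 and 4.4 ± 0.763 CPM. Lower in clone 38 were LEF1, with 2 counts against 52, and WNT7B, with 4 against 49. The knockout and knockdown clones are therefore set against both.

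**Figure D3:**
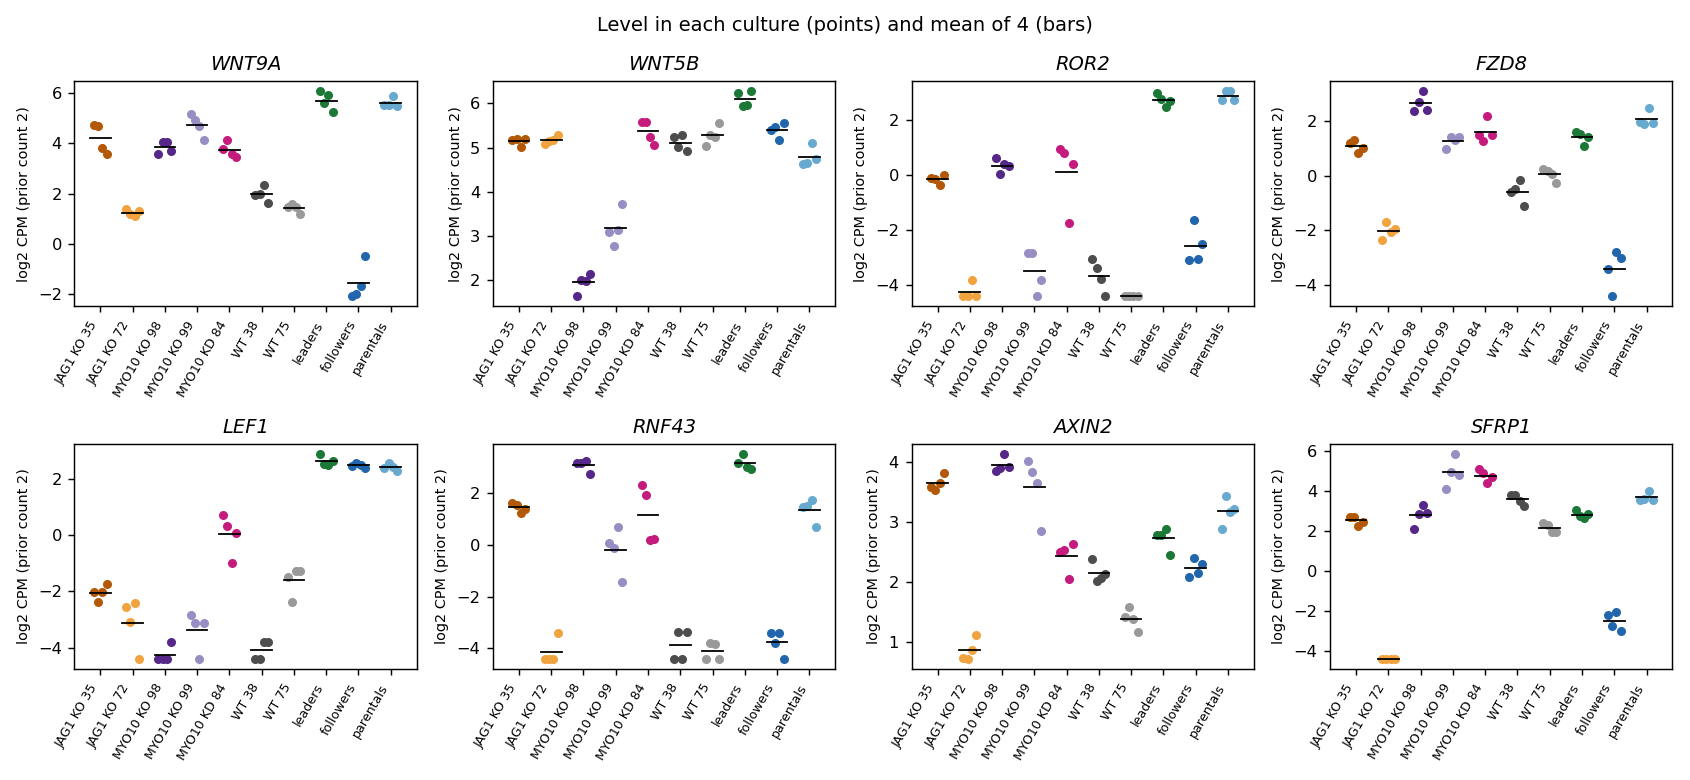
Level in each culture (points, log2 CPM with a prior count of 2) and the mean of 4 (bars) of 8 members in the 10 lines; the lowest points are libraries without a count. RNF43 sits near the bottom in JAG1 knockout clone 72, both wild-type clones and followers, and LEF1 is highest in the 3 lines that were not edited.

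Over both JAG1 knockout clones few members were called. Against both wild-type clones, 0 members were higher and 1 of 34 was lower, WNT10B, beside 2.06% of all genes called, 0.31% higher and 1.75% lower. WNT10B averaged 1.51 ± 0.432 CPM in clone 35 and 3.13 ± 0.36 CPM in clone 72, against 4.23 ± 0.327 and 5.35 ± 0.353 CPM in wild-type clones 38 and 75 (log2 fold change -1.13 ± 0.0947, adjusted p = 0.028), and each knockout culture lay below each wild-type culture. Taken singly, WNT10B was called in clone 35 and not in clone 72 (log2 fold change -1.65 ± 0.13 and -0.60 ± 0.11). WNT10B lost its call without replicate 1, 2 or 4 of clone 72 or replicate 2 or 4 of wild-type clone 38 (log2 fold change -1.12 to -1.10), and it was lost with the clone as the unit (adjusted p = 0.85). DKK1 stood at 118 ± 3.81 and 87.7 ± 4.1 CPM in the knockout clones and at 31.7 ± 5.22 and 60.3 ± 9.82 CPM in the wild-type clones, and not every pair passed (adjusted p = 0.18).

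Taken singly against the wild-type clones, clone 35 had 7 members higher and 3 lower (13.2% of all genes called, 6.26% higher and 6.98% lower) and clone 72 had 0 higher and 4 lower (7.87% of all genes called, 1.6% higher and 6.27% lower). Higher in clone 35 were WNT9A, FZD8, FZD9, ROR2, AXIN2, DKK1 and RNF43, and lower were WNT10B, ROR1 and DKK3. Lower in clone 72 were WNT16, FZD8, TCF7 and SFRP1. FZD8 was called in opposite directions, at 2.08 ± 0.291 CPM in clone 35 and 0.202 ± 0.0468 CPM in clone 72, against 0.633 ± 0.176 and 1.00 ± 0.153 CPM in the wild-type clones. SFRP1 had no count in the 4 libraries of clone 72, at least 452-fold lower than the wild-type clones, and averaged 5.73 ± 0.796 CPM in clone 35. Of 3 carcinoma markers tested, 2 were higher in clone 35 and 2 lower in clone 72, at 3851 to 4228 CPM summed per library in clone 35 and 1071 to 1141 CPM in clone 72, against 1894 to 2029.6 and 1722 to 1908 CPM in wild-type clones 38 and 75. Of 2 leukocyte markers 1 was higher in each knockout clone, at 1.35 to 1.74 and 0.237 to 0.687 CPM summed, against 0.148 to 0.452 and 0.137 to 0.337 CPM in the wild-type clones. Their part in these differences was not tested.

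Set directly against each other, clone 35 was higher than clone 72 in 13 members and lower in 4 (21% of all genes called, 12.2% higher and 8.78% lower). RNF43 averaged 2.7 ± 0.323 CPM in clone 35, against 2 counts in all of clone 72, a ratio of 227-fold (95% interval 62.5 to 1881). ROR2 had 137 counts in clone 35 and 1 in clone 72, a ratio of 142-fold (95% interval 25.1 to 5664). AXIN2, the scaffold protein whose gene is a standard readout of beta-catenin, averaged 12.4 ± 1.06 CPM in clone 35 and 1.78 ± 0.238 CPM in clone 72 (log2 fold change 2.80 ± 0.17, adjusted p = 5.4e-18). WNT9A averaged 19.5 ± 7.75 and 2.32 ± 0.201 CPM and WNT16 10.2 ± 2.64 and 0.767 ± 0.113 CPM in clones 35 and 72, with log2 fold changes of 3.07 ± 0.27 and 3.73 ± 0.31. In none of these 5 genes did the cultures of the clones overlap. Also higher in clone 35 were WNT6, WNT7B, FZD2, FZD8, FZD9, LEF1, TCF7 and SFRP1; LEF1 is near the threshold (adjusted p = 0.042) and was not called without replicate 1, 3 or 4 of clone 35 or replicate 2 or 4 of clone 72 (log2 fold change 0.82 to 1.237). Lower in clone 35 was WNT2B, with 1.74, 1.19, 2.26 and 1.27 CPM in clone 35, against 4.37, 4.32, 5.36 and 3.88 CPM in clone 72 (log2 fold change -1.47 ± 0.17, adjusted p = 6.9e-10). The cultures did not overlap, and 21.2% of the exon length of WNT2B is shared with ST7L on the other strand. WNT10B lost its call without replicate 2 or 3 of clone 35 or replicate 3 of clone 72 (log2 fold change -0.96 to -0.91). It was 1 of the other 3 lower members with ROR1 and DKK3, with ROR1 at 6.94 ± 0.937 CPM in clone 35 and 24.8 ± 1.87 CPM in clone 72 (log2 fold change -1.83 ± 0.15, adjusted p = 8.6e-13). The summed carcinoma markers stood at 3851 to 4228 CPM per library in clone 35 and 1071 to 1141 CPM in clone 72, with 0 of 5 genes without a count, and the 3 of them that were tested were higher in clone 35. Their part in these differences was not tested.

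In the MYO10 knockout clones, AXIN2 and RNF43, 2 of the 6 readouts of the canonical arm, were higher with WNT9A and FZD8, and WNT5B and ROR1 of the ROR2 arm were lower. The other readouts ZNRF3, LEF1, TCF7 and DKK1 were not called over both clones (log2 fold change -0.10 ± 0.0499, -1.56 ± 0.93, -0.58 ± 0.0713 and 1.13 ± 0.15). Of these DKK1 alone was called in a single clone, higher in clone 98. TCF7 was lower in clone 98 and missed the fold threshold narrowly (log2 fold change -0.98 ± 0.0917, adjusted p = 1.1e-10), with -0.18 ± 0.0864 in clone 99. Over both clones against both wild-type clones, 4 members were higher (WNT9A, FZD8, AXIN2 and RNF43) and 3 lower (WNT5B, ROR1 and DKK3), beside 8.06% of all genes called, 4.91% higher and 3.15% lower. By arm, 3 of 20 canonical members were higher and 1 lower, and 1 of 9 Frizzled receptors was higher. In the ROR2 arm 0 of 5 were higher and 2 lower. ROR2 itself was called higher in clone 98 taken singly and not in clone 99, as given below. RYK was higher over both clones but under the fold threshold (log2 fold change 0.39, adjusted p = 2.1e-07). AXIN2 had 14.2, 14.7, 17.4 and 15 CPM in clone 98 and 16.1, 14.1, 12.5 and 7.18 CPM in clone 99, against 5.14, 3.99, 4.12 and 4.33 CPM in wild-type clone 38 and 2.63, 2.96, 2.55 and 2.2 CPM in clone 75 (log2 fold change 2.03 ± 0.11, adjusted p = 1.2e-10). The lowest knockout culture lay above the highest wild-type culture. Of the exon length of AXIN2, 25.2% overlaps AC004805.1 on its own strand, which is not among the symbols counted. RNF43 averaged 8.53 ± 1.23 CPM in clone 98 and 0.94 ± 0.509 CPM in clone 99, against 4 and 2 counts in the wild-type clones. No knockout culture of RNF43 reached down to the wild-type level. Against clone 75 the ratios were 740.2-fold (95% interval 205 to 6118) and 81.0-fold (95% interval 22.1 to 675). WNT9A averaged 14.5 ± 2.37 and 27.3 ± 7.82 CPM in clones 98 and 99, against 3.95 ± 0.800 and 2.66 ± 0.327 CPM in the wild-type clones (log2 fold change 2.62 ± 0.19, adjusted p = 5.7e-07). FZD8 averaged 6.28 ± 1.52 and 2.38 ± 0.314 CPM, against 0.633 ± 0.176 and 1.00 ± 0.153 CPM (log2 fold change 2.27 ± 0.15, adjusted p = 5.9e-06). Neither gene overlapped between knockout and wild-type cultures.

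Of the lower members, WNT5B changed most. It averaged 3.83 ± 0.55 CPM in clone 98 and 9.28 ± 2.7 CPM in clone 99, against 34.7 ± 4.27 and 39.1 ± 5.74 CPM in wild-type clones 38 and 75 (log2 fold change -2.63 ± 0.11, adjusted p = 4e-12). These 2 clones held the lowest WNT5B of the 10 lines, and each knockout culture lay below each wild-type culture. ROR1 averaged 14.9 ± 1.55 and 11.3 ± 1.28 CPM in clones 98 and 99, against 29.4 ± 7.47 and 30.9 ± 4.12 CPM (log2 fold change -1.21 ± 0.10, adjusted p = 9.6e-07). DKK3 had 5.18, 9.52, 10.5 and 9.1 CPM in clone 98 and 13.8, 14.3, 11.6 and 13.5 CPM in clone 99, against 41.8, 40.2, 38.1 and 35.3 CPM in wild-type clone 38 and 31.1, 28.8, 23.6 and 28.8 CPM in clone 75 (log2 fold change -1.63 ± 0.0893, adjusted p = 7.5e-09). Its groups did not overlap. When each clone's cultures were summed and clones served as replicates, edgeR called 0 of 24581 genes. An unadjusted p under 0.05 was reached by 2853 genes, among them 9 of 35 members. These were DKK1, DKK3, FZD6, LGR4, LRP5, RNF43, RYK, WNT5B and WNT9A. AXIN2, FZD8 and ROR1 were not among them. With clone 84 counted as another knockout clone, WNT9A, FZD8 and RNF43 were called, and WNT5B, ROR1, AXIN2 and DKK3 were not. The carcinoma markers were higher in the knockout clones in 2 of the 3 tested, at 2794 to 3368 and 2134 to 2684 CPM summed per library in clones 98 and 99, against 1894 to 2029.6 and 1722 to 1908 CPM in the wild-type clones. Their part in these differences was not tested.

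The 2 MYO10 knockout clones also differed between themselves, with 4 members higher and 3 lower in clone 98 than in clone 99 (9.55% of all genes called, 4.27% higher and 5.28% lower). ROR2 had 215 counts in clone 98 and 9 in clone 99, a ratio of 23.6-fold (95% interval 12.2 to 52.4), and it was not called over both knockout clones, since not every pair of lines passed. Taken singly against both wild-type clones, ROR2 was called higher in clone 98 (log2 fold change 6.83 ± 0.56, adjusted p = 2.1e-09). It was not called in clone 99 (log2 fold change 2.34 ± 1.15, adjusted p = 0.9). Against wild-type clone 75, clone 98 was at least 71.0-fold higher. RNF43, WNT10B and FZD8 were the other higher members, with log2 fold changes of 3.18 ± 0.36, 1.40 ± 0.12 and 1.40 ± 0.18. SFRP1 averaged 7.04 ± 2.22 CPM in clone 98 and 33.2 ± 17.0 CPM in clone 99 (log2 fold change -2.24 ± 0.25, adjusted p = 2.2e-08), and WNT5B was lower in clone 98 too (-1.28 ± 0.17). LEF1 was the third, on 1 count against 10, and lost its call without replicate 1, 2 or 3 of clone 98 or replicate 1, 2 or 4 of clone 99 (log2 fold change -2.72 to -2.49).

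Clone 84, the knockdown, had 9 members higher and 0 lower than the wild-type clones (7.19% of all genes called, 5.31% higher and 1.87% lower): WNT6, WNT7B, WNT9A, FZD8, FZD9, ROR2, LEF1, RNF43 and SFRP1. ROR2 averaged 1.27 ± 0.731 CPM in clone 84, which was 34.7-fold (95% interval 15.7 to 95.6) higher than in clone 38 and at least 73.1-fold higher than in clone 75. RNF43 averaged 2.75 ± 1.95 CPM, a ratio of 237-fold (95% interval 65.2 to 1961) over clone 75. SFRP1 averaged 27.4 ± 5.34 CPM in clone 84, against 11.9 ± 2.21 and 4.4 ± 0.763 CPM in clones 38 and 75 (log2 fold change 1.92 ± 0.21, adjusted p = 0.00029). WNT9A averaged 13.5 ± 2.93 CPM in clone 84 (log2 fold change 2.06 ± 0.21, adjusted p = 1.8e-06), while WNT5B, at 41.7 ± 7.1 CPM, and AXIN2, at 5.4 ± 0.905 CPM, were not called (log2 fold changes 0.18 ± 0.12 and 0.68 ± 0.14). WNT7B and FZD9 lay near the thresholds (adjusted p = 0.042 and log2 fold change 1.03 ± 0.15), and lost their calls without replicate 3 of clone 84, replicate 2 of wild-type clone 38 or replicate 1, 2, 3 or 4 of wild-type clone 75 (log2 fold change 1.99 to 2.79) and without replicate 2 or 3 of clone 84 or replicate 4 of wild-type clone 38 (log2 fold change 0.80 to 0.98). Since all edited clones are set against the same 2 wild-type clones, their values stand side by side and no likeness between them is drawn from these comparisons.

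**Figure D4:**
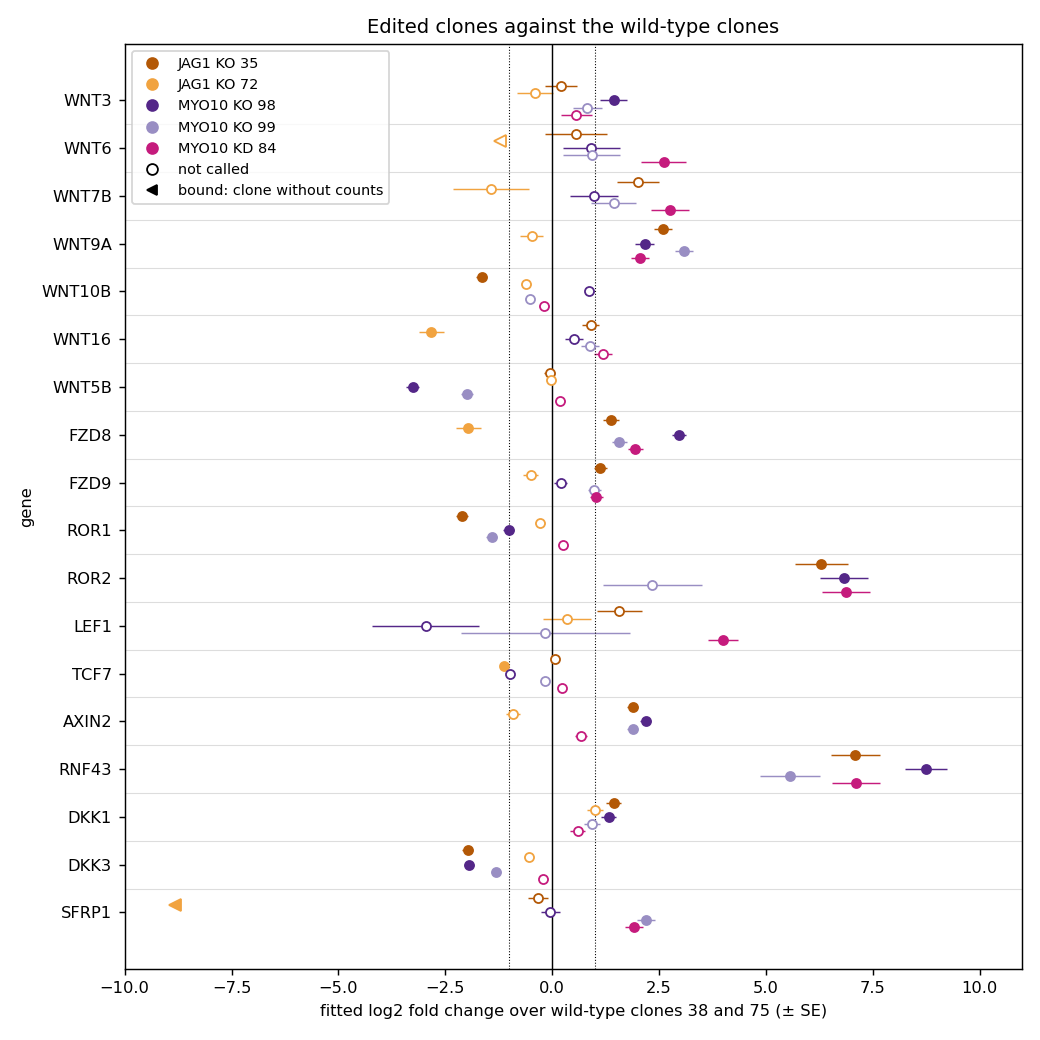
Fitted log2 fold change (x axis, with standard error) of each edited clone over the mean of wild-type clones 38 and 75, for members called in at least 1 clone taken singly (y axis); filled points passed the test, and triangles are bounds for clone 72, which had no count of WNT6 or SFRP1. RNF43 and ROR2 of clone 72 are not drawn because both sides are near 0; WNT5B is filled on the left in MYO10 knockout clones 98 and 99.

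Other genes of the pathway were read from 5 lists, beside which 25.4% of all genes were called in leaders against followers, 2.06% in the JAG1 knockout clones and 8.06% in the MYO10 knockout clones. Inside the cell few genes were called. Of 28 genes of the destruction complex, Dishevelled and nuclear partners, 1 was higher and 1 lower in leaders against followers, 0 and 0 in the JAG1 knockout clones, and 0 higher and 1 lower in the MYO10 knockout clones. TLE4 was called in the first and the last, in opposite directions. It encodes a co-repressor that works with TCF/LEF factors and averaged 3.38 CPM in leaders and 0.00638 CPM in followers, and it had no count in the 8 MYO10 knockout libraries, at least 547-fold lower than in the wild-type clones. GSK3A, a kinase of the complex, averaged 64.9 CPM in leaders and 229 CPM in followers (log2 fold change -1.82 ± 0.0573). Of the 7 genes for secretion and further ligands 2 were tested. WLS, which carries WNT proteins to the surface, averaged 315 CPM in leaders and 121 CPM in followers (1.38 ± 0.0718), and PORCN, which attaches their lipid, 9.82 CPM in MYO10 knockout clones and 3.42 CPM in wild-type clones (1.52 ± 0.12).

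Of 9 further reported beta-catenin targets tested, 3 were higher and 2 lower in leaders against followers, 0 and 1 in the JAG1 knockout clones and 0 and 1 in the MYO10 knockout clones, beside the 25.4%, 2.06% and 8.06% of all genes called. The T-box factor TBX3 averaged 23.0 CPM in leaders and 1.63 CPM in followers (log2 fold change 3.82 ± 0.14), and NKD1, an inhibitor that binds Dishevelled, 1.67 and 0.13 CPM (3.66 ± 0.37). The homeobox gene MSX2 passed narrowly (1.01 ± 0.17), and SP5, a zinc-finger target, was lower in leaders at 0.162 CPM, against 1.89 CPM in followers (-3.53 ± 0.35). Of 10 extracellular modulators tested, 3 were higher and 2 lower in leaders, 0 and 1 in the JAG1 knockout clones and 2 and 0 in the MYO10 knockout clones. KREMEN2, a receptor for DKK1, averaged 6.6 CPM in leaders and 1.64 CPM in followers, and 22.9 CPM in MYO10 knockout clones and 7.4 CPM in wild-type clones (log2 fold changes 2.00 ± 0.13 and 1.64 ± 0.0732). The WNT-binding inhibitor WIF1 averaged 0.0679 CPM in leaders and 2.02 CPM in followers (-4.83 ± 0.45), and NOTUM, which strips the lipid from WNT proteins, 0.318 CPM in JAG1 knockout clones and 1.48 CPM in wild-type clones (log2 fold change -2.20 ± 0.20, adjusted p = 3.5e-05).

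Of 22 effectors of planar polarity and other non-canonical signalling tested, 3 were higher and 4 lower in leaders, 0 and 0 in the JAG1 knockout clones and 3 and 0 in the MYO10 knockout clones. The 31.8% called in leaders is near the 25.4% of all genes, and 0% and 13.6% in the knockout clones stand beside 2.06% and 8.06%. NFATC2, a calcium-regulated factor, averaged 5.68 CPM in leaders and 0.0437 CPM in followers, and 4.27 CPM in MYO10 knockout clones and 0.93 CPM in wild-type clones (log2 fold changes 6.95 ± 0.34 and 2.17 ± 0.15). The polarity cadherin CELSR1 averaged 66.9 CPM in leaders and 17.7 CPM in followers (1.92 ± 0.0817), and the actin crosslinker FLNA, a partner of ROR2, 1096 and 3641 CPM (-1.73 ± 0.11). PRICKLE1, a core polarity protein, was lower in leaders than in followers (3.01 and 6.13 CPM, log2 fold change -1.03 ± 0.17) and higher in MYO10 knockout than in wild-type clones (5.21 and 0.121 CPM, 5.34 ± 0.19).

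The remaining members complete the account. Tested but called in none of the 12 comparisons were WNT3, WNT4, WNT10A, FZD1, FZD5, RYK, LRP5, LRP6, TCF7L2 and ZNRF3. Mean levels over the lines ran from 71.8 to 117 CPM for RYK, 23.1 to 51.5 for LRP5, 25.4 to 48.3 for FZD1, 20.5 to 31.5 for FZD5, 18.9 to 29.8 for TCF7L2 and 11.4 to 24.1 for ZNRF3 in CPM, with WNT10A (0.527 to 2.07), WNT3 (0.121 to 0.498) and WNT4 (0.0731 to 0.316) beside them. LRP6 had 0.194 to 0.376 CPM in every line. LDHA and ZYX, abundant in most cultured cells, had 0 to 3 and 0 to 10 counts per library here, so the level of LRP6, and any other level near 0, cannot be read as absence of the transcript. WNT3A, WNT5A, WNT7A, WNT11, FZD10, TCF7L1 and LGR5 fell under the filter and were not tested, with at most 22 counts over the 4 libraries of any line, reached by LGR5 in followers.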

How the data were processed

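RNA from 40 cultures, 4 of each of 10 H1299 lines, was sequenced (NovaSeq X-Plus, per the labels). The deposited file holds read counts per gene for all libraries. The submitters' processing notes name build hg38, STAR 2.7.11b and HTSeq 2.0.5, with fastp 0.23.4 and FastQC 0.12.0. The annotation release and the strand setting are not given in the sources used here, so overlapping and antisense genes are uncertain.

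Columns were matched to samples by name. edgeR 4.0.16 (R 4.3.3, limma 3.58.1) was fitted to the deposited counts of all 40 libraries with 1 coefficient per line: filterByExpr with a minimum count of 10, which kept 19703 genes, TMM factors of 0.952 to 1.06, and robust quasi-likelihood tests on 30 residual degrees of freedom. The common biological coefficient of variation was 8.62%. p-values were adjusted by Benjamini-Hochberg over all genes tested. A call needed adjusted p under 0.05 and a log2 fold change of 1 or more in size. Over several clones the largest p of all pairs of lines was taken, with 1 where directions differed, and the log2 fold change was averaged, so adjusted p = 1 there means no test of the average. CPM (counts per 1000000) were computed on TMM-scaled totals, and levels per kilobase with GENCODE 29 exon lengths. Fold bounds against groups without counts use a floor of 3 counts over the group. The procedure was tested on simulated data. The result of 1 further marker list is not reported here.

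No 2 cultures of a line agreed within sampling noise (chi-square per degree of freedom 2.45 to 33.6). The 41 members, the gene lists and the tests were chosen with earlier results of these data known. Values per culture are given for members called in at least 1 of the 12 comparisons with at least 1 CPM in some line. From the other lists, up to 4 called genes with the largest change and at least 1 CPM are named. Alternatives changed the scaling, the filter, the test (DESeq2 1.42.0), the fold threshold, the rule over clones, the unit, the replicate block and each replicate in turn; clone 84 as a knockout clone was added after seeing the data.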

Additional observations from a re-analysis of the deposited data

Results flagged for a closer look

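Within a line, a single culture lay far from the other 3 in 14 of 264 groups of 4 cultures (members with a mean of at least 1 CPM, Dixon's test of the gap over the range). Chance gives about 1 in 20, and the number flagged is near that share. Parental replicate 3 was the high culture in 5 of them: WNT2B had 3.07 CPM there and 2.27 to 2.32 CPM in the other parental cultures. WNT9A had 59.6 CPM there and 45.1 to 45.8 CPM in the others. FZD8 had 5.47 CPM and the others 3.68 to 3.81 CPM. DKK3 had 45.5 CPM and the others 36.7 to 37.3 CPM. SFRP1 had 15.98 CPM and the others 11.5 to 11.9 CPM. Whether anything sets that culture apart was not tested.

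WNT16 was flagged in 3 lines. It had 9.6 CPM in MYO10 knockout clone 98 replicate 3 and 6.97 to 7.23 CPM in the others, 5.23 CPM in wild-type clone 38 replicate 4 and 11.02 to 11.96 CPM in the others, and 2.47 CPM in follower replicate 1 and 1.94 to 2.01 CPM in the others. Low single cultures were JAG1 knockout clone 35 replicate 3 for WNT5B, with 32.1 CPM and 36.2 to 36.7 CPM in the others, wild-type clone 75 replicate 3 for FZD6, with 51.4 CPM and 61.9 to 62.7 CPM in the others, and follower replicate 4 for FZD4, with 4.72 CPM and 6.26 to 6.56 CPM in the others. FZD9 had 2.47 CPM in follower replicate 4 and 2.51 to 2.52 CPM in the others, a gap that is wide only against a narrow range. ZNRF3 had 10.2 CPM in follower replicate 3 and 11.8 to 11.96 CPM in the others, and FZD5 was high in parental replicate 4, at 31.1 CPM against 25.9 to 26.6 CPM.

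Some members were called in opposite directions against a shared group of cultures, and the difference was tested directly. Leaders and followers, each set against parentals, differed by 8.07 ± 0.60 on the log2 scale for RNF43, 3.66 ± 0.39 for WNT7B, 2.73 ± 0.0953 for FZD7 and 2.72 ± 0.10 for LGR4 (SE; edgeR adjusted p of 4.5e-11 or less). All 4 were higher in leaders and lower in followers. FZD8 was higher in JAG1 knockout clone 35 and lower in clone 72 than in the wild-type clones, and the clones differed by 3.34 ± 0.28 (edgeR adjusted p = 4.4e-14).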

How the results depend on the processing

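Of 111 calls of a member in a comparison, 93 held under every alternative run and 0 reversed. The calls that span clones depended most on the rule. In the JAG1 knockout clones 1 member was called, and 4 with no low-count filter, 6 by a test of the average over lines, 0 with the clone as the unit and 0 to 1 with a culture left out. In the MYO10 knockout clones 7 were called, and 11 by adjusted p alone, 12 by the average, 0 with the clone as the unit and 3 with clone 84 added. Of 24581 genes, 0 were called with the clone as the unit in either comparison, and 1385 and 2853 had an unadjusted p under 0.05 in the JAG1 and the MYO10 knockout clones. By adjusted p alone, without the fold threshold, members called numbered 20 in leaders and 27 in followers against parentals, 23 in wild-type clones against leaders, 15 between the wild-type clones, 10 in clone 72, 17 between the MYO10 knockout clones and 14 in clone 84, and 21 set a line apart. The cause of these shifts was not tested. Replicate numbers were not treated as pairing the cultures, since the labels do not tie them and 21 of 180 same-numbered pairs had deviations correlated over 0.1 (-0.149 to 0.211, median 0.0212, against -0.0111 between different numbers). That 27 of 40 libraries correlated best with their own number is a hint from the data, not the design. With a replicate block, 11 members still set a line apart, 17 were called in followers against parentals, and WNT7B in clone 84 was no longer called (log2 fold change 2.69, edgeR adjusted p = 0.054). DESeq2 gave the same side of the threshold in 407 of 408 results. Depth limits genes near 0 such as WNT6 and LEF1 in clones.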
